A study of Mus musculus with 8 samples.

Results

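The levels of 8 keratin genes were followed in colon epithelial cells of mice in which glycosyltransferase genes had been altered: the hair-type keratin Krt36, the simple epithelial keratins Krt7, Krt8, Krt18, Krt19 and Krt20, and Krt23 and Krt80. They were taken by gene symbol from tables of 24346 gene rows, 52 of which are keratins. The 8 were chosen by their measured FPKM in mutant and wild-type libraries, so every mutant difference from wild-type given here is a description. Untreated C57BL/6J mice of 4 genotypes were compared: wild-type, St6galnac6-/- (a sialyltransferase gene), B3galt5D116A (a D116A substitution in a galactosyltransferase) and B3gnt7-/- (an N-acetylglucosaminyltransferase gene). Each genotype was represented by 1 male and 1 female library, or 8 libraries in all. The labels give neither the age of the mice, nor how the alleles were made, nor how many animals went into a library. They give no batch or date, so a batch and the genotype cannot be told apart, and every p-value measures only the spread between these libraries.

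Keratins are the intermediate filament proteins of epithelia, and a filament is built from pairs of an acidic type I and a basic type II chain. In the simple epithelium of the gut, the type II chain Krt8 pairs with the type I chains Krt18, Krt19 and Krt20, and the resulting network lies under the cell membrane and is anchored at desmosomes. Krt20 is best known from differentiated cells of the intestinal surface. Krt36 belongs instead to the type I hair keratins, which are known from the hair shaft, the nail and the papillae of the tongue.

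Values are FPKM, fragments per kilobase of transcript scaled to sequencing depth, so levels of different genes within a library are on a scale per length. The FPKM sum of a library was 518482 to 639537, and 11392 to 11663 genes reached 1 FPKM. The tables hold no counts, so the depth of each library is unknown and no counting interval can be given. The epithelial label was matched by its markers: Epcam, an epithelial adhesion molecule, lay between 864 and 953 FPKM. The 14 markers of stromal and muscle cells summed to 8.51 to 34.7 FPKM, with the highest sum in the B3gnt7-/- female library, and the 13 immune markers to 3.82 to 11.4 FPKM. Of the targeted genes, St6galnac6 was at 218 and 232 FPKM in St6galnac6-/- libraries against 343 to 495 in the others. B3gnt7 was at 68.8 and 142 FPKM in B3gnt7-/- libraries against 154 to 266 in the others. B3galt5, which carries a substitution, was at 133 and 93.1 FPKM in B3galt5D116A libraries and 105 to 162 in the others, so its level does not check that label. Which part of St6galnac6 or of B3gnt7 was removed is not stated in the labels.

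By position, Krt36 sits among type I keratin genes and away from its type II partners. In the GENCODE M21 annotation of mm10, Krt36 lies at chr11:100102007-100105626 on the minus strand, 35.2 kb from Krt19 at chr11:100140810-100148665. Krt20 (chr11:99428403-99438150) and Krt23 (chr11:99477974-99493137) lie on the same strand of that chromosome. The type II genes Krt7 (chr15:101411043-101430313), Krt8 (chr15:101996698-102004482) and Krt80 (chr15:101347444-101370162) lie on chromosome 15. Krt18 (chr15:102028180-102032027) is the type I gene found there, 23.7 kb from Krt8. The annotated span of Krt7 overlaps Gm671, that of Krt8 overlaps Gm36026, and that of Krt80 overlaps Gm35853 and Mir1941. The library kit keeps strand, but whether the authors counted by strand is not given in the sources used here. Of the 50-base windows of the Krt8 transcript, 29.7% also occur in other annotated transcripts, mostly those of the pseudogene Krt8-ps, so the Krt8 level is uncertain. For Krt36 the share was 0.432%, all in Krt31, which was listed at 0 in every library.

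The 250 bases before the transcription start are shown for the pair of keratins that were lower in every mutant library by the largest margin, Krt36 and Krt23, and for Krt20, whose window held most of the motif matches. The sequences are those of RefSeq on GRCm38.p6, and all 3 are written along the minus strand of chromosome 11, so that each reads toward its gene. The windows are chr11:100105627-100105876 for Krt36, chr11:99493121-99493370 for Krt23 and chr11:99438154-99438403 for Krt20. Capitals mark matches to the motifs searched, on either strand.
Krt36: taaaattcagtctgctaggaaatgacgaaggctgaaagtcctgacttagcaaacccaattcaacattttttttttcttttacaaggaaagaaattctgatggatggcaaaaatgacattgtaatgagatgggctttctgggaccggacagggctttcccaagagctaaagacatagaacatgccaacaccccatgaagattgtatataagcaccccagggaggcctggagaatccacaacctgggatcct
Krt23: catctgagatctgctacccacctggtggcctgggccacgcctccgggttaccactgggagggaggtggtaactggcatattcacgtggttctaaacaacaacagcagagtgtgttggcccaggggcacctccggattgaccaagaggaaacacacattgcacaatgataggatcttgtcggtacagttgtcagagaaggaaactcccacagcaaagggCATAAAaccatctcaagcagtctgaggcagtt
Krt20: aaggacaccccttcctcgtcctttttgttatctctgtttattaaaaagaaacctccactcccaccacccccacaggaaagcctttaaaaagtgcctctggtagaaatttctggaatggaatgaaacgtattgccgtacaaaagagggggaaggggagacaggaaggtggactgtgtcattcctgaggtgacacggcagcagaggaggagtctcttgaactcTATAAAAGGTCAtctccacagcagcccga
The motifs searched, on both strands, were that of the TATA box, spelled TATAAA, that of the Cdx factors, spelled TTTATG, that of AP-1, spelled TGANTCA, and that of the Nr4a receptors, spelled AAAGGTCA. In Krt20 the capitals are a TATA box motif, 29 to 24 bases before the start, overlapping an Nr4a motif, 25 to 18 bases before it. In Krt23 they are a Cdx motif read on the opposite strand, 32 to 27 bases before the start. Read toward the gene, that stretch is CATAAA, which differs from TATAAA in its leading letter only. The Krt36 window held none of the 4 motifs as spelled, and neither did those of Krt7, Krt8 and Krt18. No other spelling was searched, and the Krt36 window does hold a TATA-like stretch, tatataag. The lack of a match therefore does not show that Krt36 lacks a TATA box. Promoter entries existed for 6 of the 8 genes, without Krt19 and Krt80. Among 32851 promoter windows of the same length, 12.4% held the TATA box motif, 10.8% the Cdx motif, 6.75% the AP-1 motif and 1.34% the Nr4a motif. These matches are letters in a window and not measured binding sites.

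Of the 7 keratins tested, Krt36 had the largest difference between wild-type and mutant colon epithelium. It was at 34.4 FPKM in the wild-type male and 27.9 FPKM in the wild-type female library. In the mutants it was at 3.54 and 4.62 FPKM (St6galnac6-/-, male and female), 2.96 and 2.91 FPKM (B3galt5D116A) and 4.42 and 2.098 FPKM (B3gnt7-/-). Both wild-type libraries were therefore far above all 6 mutant libraries, and the lowest value belonged to the B3gnt7-/- female. The genotype means were 31.2 ± 4.63 FPKM in wild-type, 4.08 ± 0.763 in St6galnac6-/-, 2.94 ± 0.0346 in B3galt5D116A and 3.26 ± 1.64 in B3gnt7-/- (SD, n = 2 each). The wild-type mean was 7.64, 10.6 and 9.56 times the means of St6galnac6-/-, B3galt5D116A and B3gnt7-/-. Since these are bulk libraries, fewer cells with Krt36 and less Krt36 RNA per cell cannot be told apart.

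The difference was of similar size in males and females. In males, Krt36 in the mutants stood at 10.3% (St6galnac6-/-), 8.61% (B3galt5D116A) and 12.8% (B3gnt7-/-) of the wild-type male. Set against the wild-type female, the females stood at 16.6%, 10.4% and 7.52% in the same order. On the log2(FPKM + 1) scale the fitted differences from wild-type were -2.66 in St6galnac6-/-, -3.02 in B3galt5D116A and -2.96 in B3gnt7-/-, each with a standard error of 0.25. Of 11537 genes tested, those whose mean reached 1 FPKM, 5, 3 and 3 had a larger fall in the same comparisons. All 3 comparisons share the same pair of wild-type libraries.

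Among the mutants, in libraries that do not include the wild-type pair, Krt36 levels were close to each other. The order of the means was St6galnac6-/-, B3gnt7-/-, B3galt5D116A. Both B3galt5D116A libraries lay within the range of the B3gnt7-/- pair, and the St6galnac6-/- range overlapped that of B3gnt7-/-. St6galnac6-/- and B3galt5D116A were next to each other without overlap, with a log2 difference of 0.36 (SE 0.25; limma adjusted p = 0.917). The difference was 0.30 (SE 0.25; limma adjusted p = 1) between St6galnac6-/- and B3gnt7-/-, and -0.06 (SE 0.25; limma adjusted p = 0.955) between B3galt5D116A and B3gnt7-/-. The standard errors and p-values come from the fit on all 8 libraries, so the spread they use draws on the wild-type pair too. With 2 libraries a genotype, these standard errors leave room for differences of the sizes seen, and a p above 0.05 does not show equal levels.

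Krt23, a type I keratin of glandular and gut epithelia, was the other low-level keratin with lower values in all mutant libraries. Its level was 12.04 and 12.7 FPKM in the wild-type male and female, 7.05 and 7.04 in St6galnac6-/-, 6.96 and 5.21 in B3galt5D116A, and 5.72 and 8.20 in B3gnt7-/-. Neither wild-type library overlapped a mutant library, and the mutants stood at 41.1% to 64.6% of wild-type when each sex was set against its own. The fitted log2 differences were -0.73, -0.93 and -0.77 (SE 0.19) in St6galnac6-/-, B3galt5D116A and B3gnt7-/-, smaller in size than those of Krt36. Krt36 was 2.198 to 2.86 times Krt23 in wild-type libraries, whereas in the mutants the ratio was 0.256 to 0.773, so that Krt23 was above Krt36 in every mutant library.

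The major type II chain of the gut, Krt8, was the most abundant keratin in every library. Its level was 5508 and 4685 FPKM in the wild-type male and female, 3962 and 3747 in St6galnac6-/-, 4582 and 4727 in B3galt5D116A, and 4655 and 3822 in B3gnt7-/-. The B3galt5D116A female exceeded the wild-type female, so the ranges overlapped. Fitted log2 differences from wild-type were -0.40, -0.13 and -0.27 (SE 0.20) for St6galnac6-/-, B3galt5D116A and B3gnt7-/-.

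Krt18, the type I partner of Krt8, was at 667 and 526 FPKM in the wild-type male and female. The mutant values were 490.2 and 449 in St6galnac6-/-, 486 and 520.1 in B3galt5D116A, and 481 and 387 in B3gnt7-/-. Both wild-type values were above all mutant values, though the wild-type female exceeded the B3galt5D116A female by a small margin. The log2 differences were -0.34, -0.24 and -0.46 (SE 0.16) in the same order. Krt8 was 8.26 and 8.90 times Krt18 in the wild-type male and female, and 8.08 and 8.34 times in St6galnac6-/-. The ratio was 9.43 and 9.09 in B3galt5D116A and 9.67 and 9.89 in B3gnt7-/-, above both wild-type libraries. It was not tested, and it carries the uncertainty of the Krt8 level.

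The other type I keratins of the gut, Krt19 and Krt20, overlapped between wild-type and mutants. Krt19 was at 3616 and 3293 FPKM in the wild-type male and female and between 2823.5 and 3722 FPKM in the mutants, with log2 differences of -0.24, 0.09 and -0.14 (SE 0.19). Krt20, the surface-cell keratin, was at 509 and 467 FPKM in the wild-type pair, 432 and 509.7 in St6galnac6-/-, 586 and 735 in B3galt5D116A, and 687 and 490.4 in B3gnt7-/-. Its highest value was in the B3galt5D116A female and its lowest in the St6galnac6-/- male, on both sides of wild-type. The Krt20 log2 differences from wild-type were -0.05, 0.43 and 0.25 (SE 0.21).

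Krt7, a type II keratin best known from ductal epithelia, went the other way from Krt36. It was at 108 and 98.5 FPKM in the wild-type male and female, and between 109.7 and 144 FPKM in the mutants. All 6 mutant libraries were above both wild-type libraries, though by little in several of them, and the log2 differences were 0.16, 0.32 and 0.28 (SE 0.17). Krt80, a type II keratin of differentiating epithelia, was near the floor, at 0.156 to 0.562 FPKM, with both extremes of its range in female libraries, and was not tested because its mean was under 1 FPKM.

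**Figure D1:**
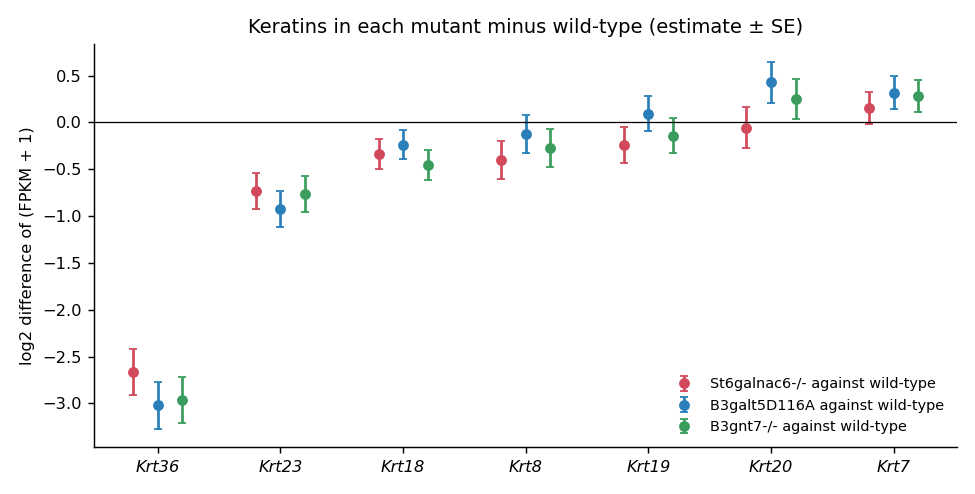
Differences of each mutant from wild-type in log2(FPKM + 1) for the 7 keratins tested, with bars of 1 standard error from limma. Krt36 lies between -3.02 and -2.66 in all 3 mutants, Krt23 between -0.93 and -0.73, and the other keratins between -0.46 and 0.43.

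Of the 7 keratins tested, limma with Benjamini-Hochberg adjustment over all 11537 genes called Krt36 against wild-type in each mutant, and no other keratin. Over all genes, 0.0867% were called in St6galnac6-/-, 0.078% in B3galt5D116A and 0.052% in B3gnt7-/-. At an unadjusted p under 0.05 the members were Krt36 and Krt23 in St6galnac6-/- and in B3galt5D116A, and Krt36, Krt23 and Krt18 in B3gnt7-/-, where 9.04%, 11.7% and 7.17% of all genes passed. As these contrasts chose the genes, nothing is read from these counts. The call of Krt36 was lost in each mutant when either wild-type library was left out, and when no filter on low values was used. It was also lost without either library of St6galnac6-/- or of B3galt5D116A in that mutant's comparison. Leaving out a library of another mutant keeps the estimate for Krt36 unchanged, so such fits say little about how firm the call is. Over all fits with 1 library left out, the log2 difference of Krt36 lay between -3.37 and -2.32.

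Both wild-type libraries were above all 6 mutant libraries for Krt36, Krt18 and Krt23, that is 3 of 7 members against 8.32% of all genes. Both were below them for Krt7, 1 of 7 against 7.23% of all genes. These shares are also the background for any single gene described here as separated between wild-type and mutant libraries. After quantile normalization the same members were separated. The median log2 difference of the 7 members was -0.34 in St6galnac6-/-, -0.13 in B3galt5D116A and -0.27 in B3gnt7-/-, beside medians over all genes of 0.0030, 0.0012 and -0.0095. After quantile normalization the members' medians were -0.17, -0.05 and 0, so their size depends on whether this step is used. In B3galt5D116A the median was -0.0040 without its male, -0.25 without its female, -0.06 without the wild-type male and -0.19 without the wild-type female library, and in B3gnt7-/- it was -0.17 without its female library. The quantile-normalized medians of -0.17, -0.05 and 0 are the values of Krt8 itself, the middle member in each mutant. Quantile normalization sets values by rank, so they do not show that the libraries were scaled unequally. The medians over all genes after it were 0.0070, -0.0017 and 0.0026. After this step the sign changed for Krt19 in B3gnt7-/- (0.07) and for Krt20 in St6galnac6-/- (0.05).

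Between mutants, limma called 0 of the 7 members in any pair, and 0 passed at an unadjusted p under 0.05. Over all genes, 0.026% were called and 3.51% had an unadjusted p under 0.05 between St6galnac6-/- and B3galt5D116A. For St6galnac6-/- and B3gnt7-/- these shares were 0.0433% and 3.81%, and for B3galt5D116A and B3gnt7-/- 0.00867% and 4.2%. The member with the smallest p was Krt20 between St6galnac6-/- and B3galt5D116A, with a log2 difference of -0.48 (SE 0.21; limma adjusted p = 0.917). Between males and females limma likewise called 0 of 7 members, and 0 at an unadjusted p under 0.05, beside 0.052% and 1.66% of all genes. The male minus female differences ran from -0.04 for Krt23 to 0.20 (SE 0.18; limma adjusted p = 0.9998) for Krt36.

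As a mixture of chains, the keratins of these libraries were dominated by Krt8 and Krt19. The 52 keratin rows summed to 7666 to 10465.5 FPKM, or 1.37% to 1.71% of a library's FPKM sum. Krt8 made up 51.4% to 52.6% of the keratin sum in wild-type and 47.9% to 49.7% in mutant libraries, without overlap. Krt19 made up 34.5% to 36.1% in wild-type and 36.3% to 38.6% in mutants, also without overlap. Krt20 likewise held a larger share in mutants, 5.38% to 7.45%, than in wild-type, 4.86% to 5.12%. Krt36 was a minor part throughout, 0.306% to 0.329% in wild-type and 0.0273% to 0.0603% in mutants. The summed type II to type I ratio was 1.11 to 1.16 in wild-type and 0.978 to 1.05 in mutants. These shares are bound to sum to 100%, they were not tested, and the Krt8 share carries the uncertainty of its pseudogene.

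The remaining keratins were low in these cells. Of the other 44 keratin rows, 39 had a mean under 1 FPKM with a highest single value of 1.06 FPKM, and 16 were listed at 0 in every library. The other 5 were Krt4, Krt10, Krt14, Krt83 and Krt84, keratins of stratified epithelia or hair, whose highest value was 3.85 FPKM. Among 12 hair keratins other than Krt36, Krt83 and Krt84 had a mean of at least 1 FPKM and 4 were listed at 0 throughout. The type II hair keratin Krt84 had levels of 3.10 and 2.57 FPKM in wild-type, 2.08 and 1.73 in St6galnac6-/-, 3.57 and 3.32 in B3galt5D116A, and 3.85 and 2.33 in B3gnt7-/-. Its wild-type values lay inside the mutant range, unlike those of Krt36, and it was called in no comparison with wild-type. Krt83 ranged from 0.880 FPKM to 1.94 FPKM and was not called either.

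Within 250 kb of Krt36, 41 genes are annotated, 27 have a row in the tables and 13 of these were listed at 0 in every library. A mean of at least 1 FPKM was reached by 3. Limma called 0 of these 3 against wild-type, beside 0.0867%, 0.078% and 0.052% of all genes in St6galnac6-/-, B3galt5D116A and B3gnt7-/-. The 3 were Krt19, the basal keratin Krt14 at 97.5 kb and the translation initiation factor Eif1 at 214 kb. Eif1 had 607 and 509.7 FPKM in the wild-type libraries against 388 to 498 FPKM in the mutants, without overlap.

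The genes whose profile over the 8 libraries was most like that of Krt36 were not keratins. Likeness was the root mean square difference between log2(FPKM + 1) profiles, each centred on its own mean. The nearest were Nr4a3 (0.49), an orphan nuclear receptor, Sprr2b (0.55), a small proline-rich cornified-envelope protein, Cxcl2 (0.61) and Cxcl16 (0.62), chemokines, and Csrnp1 (0.66), a nuclear protein. Nr4a3 had 8.51 and 6.66 FPKM in the wild-type libraries against 0.651 to 1.58 FPKM in the mutants. Csrnp1 had 39.1 and 34.1 FPKM against 10.9 to 14.3 FPKM. For each of these 5 genes both wild-type libraries were above all 6 mutant libraries, which is what the choice by likeness selects. Krt23 came at 0.97, with 66 genes nearer, and Krt19 and Krt7 at 1.24 and 1.38, where a gene with the same level in all libraries would be at 1.28.

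Partners of the keratin network were also examined, by lists chosen with earlier results of these data known. Of 26 genes of desmosomes, plakins and keratin regulators, 24 were tested and limma called 0 in any mutant against wild-type (2, 4 and 0 at an unadjusted p under 0.05 in St6galnac6-/-, B3galt5D116A and B3gnt7-/-, beside 9.04%, 11.7% and 7.17% of all genes). These counts are near the background. Their median log2 differences were 0.00058, -0.10 and -0.02, and with 1 library left out they ranged from -0.08 to 0.014, -0.10 to -0.06 and -0.08 to 0.06. Their summed level was 1305 to 1356 FPKM in wild-type and 1246 to 1329 FPKM in mutants. Eppk1, the plakin epiplakin, which binds keratin filaments, had differences of -0.46, -0.69 and -0.14, and the desmosomal plakophilin Pkp1 of 0.46, -0.01 and 0.02, none of them called. Of 16 other intermediate filament genes, 5 were tested and 0 were called by limma (1, 1 and 2 at an unadjusted p under 0.05, against the same shares). Lmna, which encodes the nuclear lamins A and C, had 376 and 263 FPKM in the wild-type libraries against 186 to 244 FPKM in mutants, without overlap, with differences of -0.42, -0.66 and -0.68.

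Markers of hair and of stratified squamous epithelium were measured because Krt36 is known from such tissues. Of 10 hair shaft genes other than keratins, the transglutaminase gene Tgm3 was the tested one and 4 were listed at 0 throughout. Tgm3 had levels of 320.3 and 448 FPKM in wild-type, 123 and 115 in St6galnac6-/-, 229 and 121 in B3galt5D116A, and 138 and 275 in B3gnt7-/-. Its wild-type values exceeded all mutant values, but it was not called in any mutant. Among 20 squamous markers, 4 were tested and limma called 0 (1, 0 and 2 at an unadjusted p under 0.05, beside 9.04%, 11.7% and 7.17% of all genes), and 6 were at 0 in every library, among them the basal-cell genes Krt5 and Trp63. The summed level of the 20 was 177 to 241 FPKM in wild-type and 44.4 to 168 FPKM in mutants, nearly all of it from Sprr1a, a cornified-envelope gene, at 235 and 173 FPKM in wild-type. Without Sprr1a the sum was 4.32 to 6.00 FPKM in wild-type and 4.42 to 7.33 FPKM in mutants.

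Summed markers of several cell types also differed between the wild-type and mutant libraries, and their part in the Krt36 difference was not tested. Of 20 surface colonocyte markers, 18 were tested, with median log2 differences of -0.39, -0.30 and -0.20 in St6galnac6-/-, B3galt5D116A and B3gnt7-/-. Without the B3galt5D116A male library the B3galt5D116A median was -0.47, and without the B3gnt7-/- male library the B3gnt7-/- median was -0.049. Of the 18, 17, 13 and 15 had negative differences and 1, 5 and 3 positive ones. Their summed level was 10600 to 11454 FPKM in wild-type and 7580 to 9900 FPKM in mutants, without overlap. By limma 1, 0 and 0 of them were called, beside 0.0867%, 0.078% and 0.052% of all genes, and 7, 5 and 5 had an unadjusted p under 0.05, beside 9.04%, 11.7% and 7.17% of all genes. Fxyd4, a regulator of ion transport, was the called one, in St6galnac6-/-. It was at 9.67 and 15.4 FPKM there against 92.8 and 109.9 FPKM in wild-type (log2 difference -2.95, limma adjusted p = 0.0233). Fxyd4 was also lower, though not called, in B3galt5D116A (42.2 and 53.9 FPKM, log2 difference -1.07) and in B3gnt7-/- (17.8 and 43.4 FPKM, log2 difference -1.82). Saa1 had 851 and 999 FPKM in the wild-type libraries against 417 to 600 FPKM in the mutants. Klf4 had 465 and 397 FPKM against 228 to 353 FPKM, and neither Saa1 nor Klf4 was called. Clca4a, of a family of chloride channel regulators, went the other way, at 73.7 and 58.0 FPKM in the wild-type male and female and 86.5 to 151 FPKM in the mutants, without overlap. Its log2 differences were 0.62, 1.06 and 0.79, and it was not called (smallest limma adjusted p = 0.233). The 9 goblet cell markers had medians of 0.64, 0.60 and 0.68 and sums of 7108 to 7388 FPKM in wild-type and 9934 to 13159 FPKM in mutants, with 0 called by limma (5, 4 and 4 at an unadjusted p under 0.05, beside 9.04%, 11.7% and 7.17% of all genes). Without the B3gnt7-/- female library the goblet median in B3gnt7-/- was 0.35. Across the 9 goblet markers, positive differences numbered 7, 9 and 9, and negative ones 2, 0 and 0. Spink4, Reg4, Clca1, Fcgbp, Zg16 and Spdef were higher in every mutant library than in either wild-type library, as were 7.23% of all genes. The ranges of Muc2, Tff3 and Agr2 overlapped instead. Muc2 ran from 1250 to 1399 FPKM in wild-type libraries and from 1045 to 1786 FPKM in mutant ones. The higher goblet sum therefore does not hold for each marker. The 11 tested of 12 crypt base and cycling markers had medians of 0.49, 0.48 and 0.51, with 0 called by limma (5, 5 and 2 at an unadjusted p under 0.05, beside 9.04%, 11.7% and 7.17% of all genes). The crypt median was 0.20 in St6galnac6-/- without its female library and -0.012 in B3gnt7-/- without its male library. Their sums were 209.6 to 210.4 FPKM in wild-type and 212 to 335 FPKM in mutants. The 9 markers of intestinal epithelial identity had medians of -0.06, -0.01 and -0.11 (0.10, 0.0014 and 0.08 after quantile normalization). Of these 9, limma called 0, beside 0.0867%, 0.078% and 0.052% of all genes. At an unadjusted p under 0.05 there were 0, beside 9.04%, 11.7% and 7.17% of all genes. Krt20, which is not on the surface list, had a mean of 488 ± 29.4 FPKM in wild-type, 471 ± 54.8 FPKM in St6galnac6-/-, 660.2 ± 105 FPKM in B3galt5D116A and 589 ± 139 FPKM in B3gnt7-/- (SD, n = 2 each).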

How the data were processed

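RNA of colon epithelial cells was sequenced in 8 libraries. The authors deposited 1 table of FPKM values per library, per the file headers. The build mm10 and the tools Cuffdiff 2.2.1, Bowtie2 2.2.8, TopHat2 2.1.1 and SAMtools 0.1.18 come from the submitters' processing notes, in no stated order. The annotation, the parameters and how libraries were scaled to each other are not given in the sources used here. FPKM depends on the gene models used and on the sharing of reads between alike genes, and a 0 may be a failed estimate.

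Log2(FPKM + 1) was fitted with limma 3.58.1 in R 4.3.3 (eBayes with trend=TRUE) on all 8 libraries, with genotype and sex as additive terms, for the 11537 genes whose mean reached 1 FPKM. This left 3 residual and 4.02 prior degrees of freedom. Tests were two-sided, with Benjamini-Hochberg adjustment over these genes and a threshold of 0.05. A log2 difference on this scale understates the change of low genes. The fit was checked on simulated data.

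The members and the gene lists were chosen with earlier results of these data known. Named were the 8 keratins, other keratins and genes within 250 kb of Krt36 whose mean reached 1 FPKM, the 5 genes with the profile nearest to Krt36, and, from the lists, genes called or with the smallest p, up to 4 per list. Beyond this rule, all listed goblet markers, Epcam, Krt5 and Trp63 were also named. Lists covered hair keratins, the keratin network, other intermediate filaments, hair shaft and squamous genes, and markers of epithelial identity, surface colonocytes, crypt base and cycling cells, goblet, tuft, enteroendocrine, stromal and immune cells and posterior position. Alternatives were no filter, no sex term, quantile normalization, a pseudocount of 0.1, each library left out, and, for shares, the sum of the 8 members. Quantile normalization for the separation of groups and the squamous sum without Sprr1a were added after seeing the data. Promoter windows came from RefSeq (GRCm38.p6).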

Additional observations from a re-analysis of the deposited data

How the results depend on the processing

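The Krt36 difference from wild-type was negative under every alternative run. With a pseudocount of 0.1 it was -3.35 in B3galt5D116A and -3.30 in B3gnt7-/-. With 1 library left out it ranged from -3.00 to -2.32 in St6galnac6-/- and from -3.37 to -2.56 in B3gnt7-/-. The number of keratins called against wild-type was 0 in each mutant with no filter, and 0 to 1 with 1 library left out; a fit with fewer libraries has fewer degrees of freedom, and the cause was not tested. Between mutants, where none of the keratins was called, small keratin differences changed sign. For Krt36 between B3galt5D116A and B3gnt7-/- the value was 0.014 after quantile normalization and -0.46 to 0.35 with 1 library left out. Between St6galnac6-/- and B3gnt7-/- it was -0.10 to 0.70 for Krt36 and -0.62 to 0.010 for Krt20 with 1 library left out. The count of all genes called was 10 in St6galnac6-/-, 9 in B3galt5D116A and 6 in B3gnt7-/- against wild-type. It was 0, 1 and 2 with no filter, 23, 16 and 7 with no sex term, and 2 to 31, 3 to 13 and 3 to 36 with 1 library left out. Of the comparisons between mutants, the counts were 3 (St6galnac6-/- and B3galt5D116A), 5 (St6galnac6-/- and B3gnt7-/-) and 1 (B3galt5D116A and B3gnt7-/-). They were 1, 1 and 0 with no filter, 7, 5 and 2 with no sex term, 5, 5 and 1 with a pseudocount of 0.1, 3, 5 and 0 after quantile normalization, and 1 to 10, 2 to 39 and 0 to 35 with 1 library left out. With 2 libraries a genotype and no counts, depth and small differences cannot be judged.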

Other observations

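Of 7 enteroendocrine cell genes listed, 6 were tested, and all 6 had positive log2 differences in each mutant. Their medians were 0.74, 0.95 and 0.64 in St6galnac6-/-, B3galt5D116A and B3gnt7-/-. Limma called 0, 1 and 0 of them, beside 0.0867%, 0.078% and 0.052% of all genes. An unadjusted p under 0.05 was reached by 2, 3 and 2, beside 9.04%, 11.7% and 7.17% of all genes. Insl5, an insulin-like peptide of the distal colon, was called higher in B3galt5D116A (from 11.04 and 13.0 FPKM to 51.8 and 46.2 FPKM; log2 difference 1.94, limma adjusted p = 0.00693). Its values were 28.4 and 26.0 in St6galnac6-/- and 26.2 and 29.2 in B3gnt7-/-, with log2 differences of 1.12 and 1.14 that were not called. The summed level of the 7 was 80.5 to 139 FPKM in wild-type and 128 to 261 FPKM in mutants, which overlapped. Of 7 tuft cell markers, 3 were tested. Limma called 0 of the 3 against wild-type, beside 0.0867%, 0.078% and 0.052% of all genes. At an unadjusted p under 0.05 there were 0, beside 9.04%, 11.7% and 7.17% of all genes, so these counts are near the background. The sum of the 7 tuft cell markers was 2.74 to 3.48 FPKM in wild-type and 3.17 to 9.27 FPKM in mutants, which overlapped as well.

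Of 13 genes that mark posterior position, such as the Hox genes, 10 were tested. Limma called 0 of them against wild-type, beside 0.0867%, 0.078% and 0.052% of all genes. Of the 10, 0 had an unadjusted p under 0.05, beside 9.04%, 11.7% and 7.17% of all genes. Their median log2 differences were -0.03, -0.28 and 0.04 in St6galnac6-/-, B3galt5D116A and B3gnt7-/-, and with 1 library left out they ranged from -0.03 to 0.04, -0.48 to 0.08 and -0.31 to 0.30. Hoxb13, a Hox gene of the hindgut, had 226 and 198 FPKM in wild-type, 189 and 213 in St6galnac6-/-, 209 and 139 in B3galt5D116A, and 129 and 179.6 in B3gnt7-/-. The wild-type female lay inside the range of the mutants.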
